A study of Mus musculus with 4 samples.

Results

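Gene deserts, the long stretches of the genome without protein-coding genes, were examined by whole-genome bisulfite sequencing in mouse embryonic stem cells with an inducible knockout of Ogt. A gene desert window was a 10 kb window of an autosome whose edges lay 500 kb or more from every protein-coding gene of RefSeq, at 5 Mb or later on its chromosome and 2 Mb or more before the last CpG listed there. It also held 10 or more CpGs with at least 1 read in all 4 libraries. Of 19735 windows that met the distance and position limits, 69 fell short of 10 CpGs and 19666 remained, out of 252642 windows of the autosomes and X with 10 or more CpGs. They covered 196.66 Mb and held 735582 CpGs, 79.7% of the CpGs listed in them. They fell into 238 deserts, each the run of windows between the same neighbouring protein-coding genes, with 1 to 353 windows and a median of 49.5. A desert window held a median of 43 listed CpGs, against 76 in the other autosomal windows inside the same limits.

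The stem cells of both groups carried floxed Ogt alleles (Ogt fl/fl) and were grown on feeder fibroblasts with LIF and serum replacement. The Ogt iKO group received 4-hydroxytamoxifen for 6 days and the control group none, with 2 libraries each. Viable stem cells were sorted away from the feeders, and the treated cells were also sorted for YFP, so drug, reporter sort and knockout cannot be told apart. The labels do not say whether the replicates were separate cultures, so each spread is that between these libraries. Ogt encodes the transferase that adds O-linked N-acetylglucosamine to nuclear and cytosolic proteins, among them the TET enzymes. TET enzymes oxidise 5-methylcytosine towards its removal, and bisulfite sequencing reads 5-methylcytosine and its first oxidation product, 5-hydroxymethylcytosine, alike as methylated. The design addresses how loss of Ogt changes cytosine methylation, with attention to heterochromatin.

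Gene deserts are poor in CpGs, mostly replicate late in S phase and often lie at the nuclear lamina. In many differentiated and tumour cells such sequence forms partially methylated domains, whereas pluripotent cells grown with serum or its replacement usually keep it highly methylated. Some deserts beside developmental regulators hold distant enhancers, and many carry long non-coding RNA genes and old transposable elements.

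Read counts summed over the listed CpGs came to 64273609 to 79929994 per library, the iKO libraries being the deeper. A read over several CpGs counts once for each of them, here and in all read counts below. Over Ogt itself, read depth in proportion to that of the other parts of chromosome X was 1.25 and 1.20 for the iKO libraries and 1.28 and 1.19 for the controls, so depth over the gene did not separate the groups. It was averaged over all 441 CpGs of the gene, so loss of a short part could go unseen. It therefore cannot tell whether Ogt was deleted. At the start of Pou5f1, a pluripotency factor, 0 of 62 and 0 of 30 reads were methylated in the iKO libraries and 2 of 44 and 0 of 37 in the controls, where counts of 0 allow up to 4.84%, 10% and 8.11%. At Nanog 0 of 10, 0 of 17 and 0 of 13 reads were methylated in iKO replicate 2 and the controls, which allows up to 30%, 17.6% and 23.1%, and iKO replicate 1 had no read there. Depth per desert CpG was 4.34 and 3.86 reads for the iKO libraries and 3.68 and 3.45 for the controls.

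The genome sequence of the desert windows themselves was not used. The sequences shown are RefSeq promoter sequences of long non-coding RNA (lncRNA) genes inside the deserts. They run from 250 bases before the start to 50 after it. RefSeq (GRCm38.p6) places 220 such promoters of 300 bases, for 195 lncRNAs, wholly within desert windows. Starts of 1 gene can lie a few bases apart, so promoters overlap and form 206 separate stretches, in which each CpG was counted once. Of 516 CG dinucleotides in them, 503 (97.5%) were listed as CpGs at the same positions in the deposited tables. The 5 promoters with the most CpGs read in all 4 libraries are printed as examples of CpG-dense sequence in deserts and of how differently it was methylated. CG dinucleotides are in capitals, and each run is 5′ to 3′ on the strand of the gene.
Gm46244: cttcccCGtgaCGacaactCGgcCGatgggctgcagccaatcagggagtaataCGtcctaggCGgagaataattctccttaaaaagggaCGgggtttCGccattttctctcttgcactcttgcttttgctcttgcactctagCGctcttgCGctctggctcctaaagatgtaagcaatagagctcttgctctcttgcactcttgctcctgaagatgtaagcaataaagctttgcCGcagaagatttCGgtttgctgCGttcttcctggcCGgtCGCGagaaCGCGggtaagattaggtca
4930402F11Rik: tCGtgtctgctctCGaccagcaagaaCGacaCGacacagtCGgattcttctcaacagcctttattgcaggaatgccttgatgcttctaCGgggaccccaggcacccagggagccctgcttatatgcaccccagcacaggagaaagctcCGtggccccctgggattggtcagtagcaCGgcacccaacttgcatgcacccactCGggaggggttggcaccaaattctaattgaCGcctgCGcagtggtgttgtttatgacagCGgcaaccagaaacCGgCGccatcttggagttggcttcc
Gm46645: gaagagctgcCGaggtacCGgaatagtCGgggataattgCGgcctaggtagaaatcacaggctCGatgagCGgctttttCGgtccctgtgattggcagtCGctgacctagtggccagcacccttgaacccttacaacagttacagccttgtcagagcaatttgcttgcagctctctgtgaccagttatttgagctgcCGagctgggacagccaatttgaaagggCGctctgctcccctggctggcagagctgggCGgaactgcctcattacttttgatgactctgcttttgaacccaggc
Gm34912: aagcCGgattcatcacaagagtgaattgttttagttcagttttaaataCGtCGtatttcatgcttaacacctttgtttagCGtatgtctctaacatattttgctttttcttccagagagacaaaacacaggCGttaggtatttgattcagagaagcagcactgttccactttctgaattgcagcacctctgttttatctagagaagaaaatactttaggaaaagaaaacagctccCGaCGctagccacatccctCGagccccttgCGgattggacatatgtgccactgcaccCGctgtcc
Gm32810: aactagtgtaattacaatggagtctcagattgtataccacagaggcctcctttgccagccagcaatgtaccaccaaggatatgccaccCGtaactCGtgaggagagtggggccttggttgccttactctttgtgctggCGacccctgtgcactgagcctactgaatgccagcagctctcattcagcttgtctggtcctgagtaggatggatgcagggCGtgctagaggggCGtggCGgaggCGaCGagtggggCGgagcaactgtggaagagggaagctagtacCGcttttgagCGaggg
They lie on chromosome 1 at 113145271 to 113145570 (plus strand), chromosome 7 at 69495844 to 69496143 (plus), chromosome 19 at 15340298 to 15340597 (minus), chromosome 5 at 77933538 to 77933837 (plus) and chromosome 1 at 112416869 to 112417168 (minus). No repeat annotation was used, so overlap with transposable elements was not tested.

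The desert genome was highly methylated in control cells and less so in both iKO libraries. Pooled over all desert windows, methylated reads made up 77.3% of control replicate 1, 82.3% of control replicate 2, 73.5% of iKO replicate 1 and 71.1% of iKO replicate 2. The groups did not overlap. The means were 72.3% ± 1.66 in iKO cells and 79.8% ± 3.54 in the control group (SD, n = 2 each), a gap of -7.49 points, larger than the pooled SD of 2.76. The two-sided exact permutation test gave p = 0.333, the smallest value that 2 against 2 libraries allow. The 95% Wilson intervals of the 4 levels reached at most 0.0527 points to either side and cover counting error only, so the gaps between replicates, 5.01 points for the controls and 2.35 for the iKO libraries, far exceeded counting error. Without control replicate 2 the difference was -4.98 points.

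The loss was spread over the bulk of the windows rather than a few of them. The median desert window stood at 73.8% and 71.3% in the iKO libraries against 77.5% and 82.8% in the controls. The share of windows at 80% or more was 14.4% and 8.19% in the iKO libraries against 34.3% and 70.6% in the controls. Windows under 50% were rare in every library, making up 0.453% and 0.681% in the iKO libraries against 0.229% and 0.127% in the controls. For both shares the groups did not overlap and the exact permutation p was 0.333. The same held in the other autosomal windows. There 8.12% and 4.16% stood at 80% or more in the iKO libraries, against 26.5% and 54.4% in the controls. Windows under 50% made up 7.93% and 9.14% there in the iKO libraries, against 5.49% and 4.92% in the controls. The median difference over single windows was -7.46 points, beside -7.79 over all 252642 windows tested, and 95.8% of desert windows were lower in iKO cells, beside 96.4% of all.

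Deserts started from a higher level than the rest of the autosomes but lost about as much. The other autosomal windows were at 64.9% ± 1.66 in iKO cells and 72.7% ± 2.496 in the control group (SD, n = 2 each), a gap of -7.80 points. Desert level minus other level was 7.44 and 7.43 points for the iKO libraries, and 6.38 and 7.86 points for control replicates 1 and 2. The iKO values lay between those of the controls. The mean iKO gap minus the mean control gap was 0.315 points, beside a pooled SD of 0.738 (two-sided exact permutation p = 1), and -0.423 points without control replicate 1 and 1.05 without control replicate 2. A separate response of deserts was therefore not detectable with these libraries.

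With distance from genes, methylation rose and then levelled off. Median listed CpGs per window fell over the first 4 classes, from 89 to 75, 55 and 45, so distance and CpG number are not separated here. In controls it was 70.1% ± 2.24 in windows that overlap a protein-coding gene, 74.8% ± 2.82 up to 100 kb away, 78.8% ± 2.91 at 100 to 500 kb and 80.02% ± 3.41 at 500 to 750 kb (SD, n = 2 each). In iKO cells the same classes stood at 62.3% ± 1.56, 66.8% ± 1.80, 71.5% ± 1.72 and 72.6% ± 1.64. Beyond 750 kb neither group rose further.

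**Figure D1:**
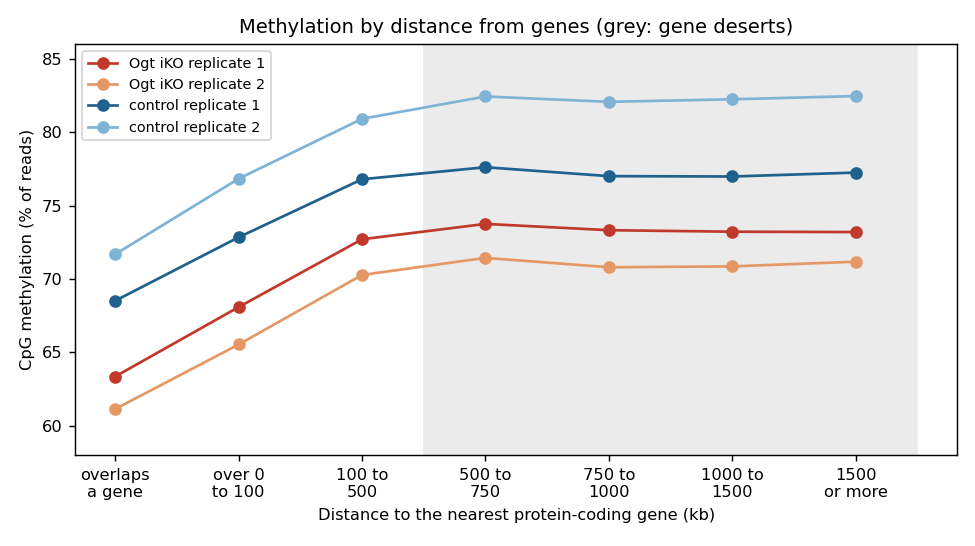
CpG methylation (percent of reads, vertical axis, not starting at 0) in 10 kb windows by distance to the nearest protein-coding gene in kb, with 1 line per library and desert classes on grey. All 4 libraries rise up to 500 kb and stay level within the deserts, where the difference between group means is -7.42 to -7.66 points.

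Within the deserts distance made little difference. Across 8575 windows at 500 to 750 kb the difference was -7.42 points, across 4614 at 750 to 1000 kb -7.47, across 4799 at 1000 to 1500 kb -7.57, and across 1678 at 1500 kb or more -7.66. The level of windows 1000 kb or more away minus that of windows 500 to 750 kb away was -0.538 and -0.496 points in the iKO libraries against -0.563 and -0.136 in the controls. The iKO gap minus the control gap was -0.168 points, beside a pooled SD of 0.215 (two-sided exact permutation p = 1). The sign turned without control replicate 2, at 0.0461 points, and the value was -0.381 without control replicate 1. Windows just outside the distance limit, at 490 to 500 kb, were at 72.7% and 79.9% in iKO and control cells, and those just inside, at 500 to 510 kb, at 71.6% and 79.2%.

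The window farthest from any protein-coding gene lay 2263.7 kb away, on chromosome 14 at 90740001 to 90750000 in the desert between Pcdh20 and Pcdh9, 2 protocadherin genes that encode cell adhesion proteins. Its levels were 70.5% and 60.5% in the iKO libraries against 69.7% and 76.9% in the controls, on 31 CpGs and 108 to 146 reads. The groups overlapped there, and the window was not called (limma-moderated adjusted p = 0.384).

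CpG number separated desert windows more than distance did. In controls the level rose from 78.1% ± 4.199 in the sparsest of 5 classes, with 13 to 34 listed CpGs, to 81.1% ± 2.72 in the densest, with 58 to 270. In iKO cells it rose from 70.3% ± 1.80 to 74.2% ± 1.52 (SD, n = 2 each). The differences between groups from sparsest to densest class were -7.77, -7.84, -7.75, -7.46 and -6.90 points. Densest minus sparsest was 3.73 and 4.13 points in the iKO libraries against 4.10 and 2.02 in the controls, so control replicate 2 stood apart with the flattest rise. The mean iKO gap exceeded the mean control gap by 0.873 points, beside a pooled SD of 1.06 (two-sided exact permutation p = 0.667), and the difference was -0.170 points without control replicate 2 and 1.92 without control replicate 1. A smaller loss in CpG-dense deserts was thus not separable from the spread between the controls.

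**Figure D2:**
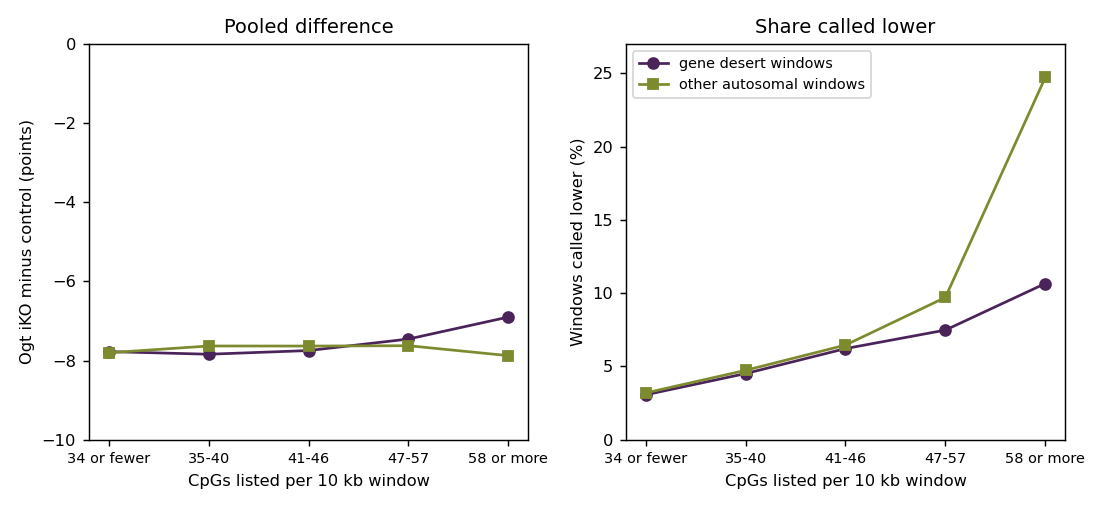
Ogt iKO minus control in percentage points (left) and percent of windows called lower in iKO cells (right), by CpGs listed per 10 kb window in 5 classes, for desert windows (circles) and other autosomal windows (squares). The differences lie between -7.88 and -6.90 points in all classes, while the share called rises with CpG number in both kinds of window, from 3.06% to 10.7% in deserts.

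Compared at like CpG number, deserts were close to the rest of the genome in 4 of the 5 classes. In windows with at most 34 listed CpGs deserts were at 70.3% in iKO cells and 78.1% in controls, and the other windows at 69.6% and 77.4%. Desert minus other level was 0.642 to 1.38 points in controls in the 4 sparser classes. In the densest class it was 9.63 ± 0.433 points in controls and 10.6 ± 0.130 in iKO cells (SD, n = 2 each), but the other windows of that class reached 628 listed CpGs, and held a median of 79 tested CpGs against 53 in deserts. Averaged over the classes by the number of desert windows, the gap was 2.79 and 2.77 points in the iKO libraries against 2.46 and 2.77 in the controls. The iKO mean exceeded the control mean by 0.164 points, beside a pooled SD of 0.152 (two-sided exact permutation p = 0.333). In the single classes, from sparsest to densest, the same difference was 0.0297, -0.208, -0.114, 0.169 and 0.975 points. The averaged value thus came from the densest class, in which CpG number was not matched, and the sign varied among the other 4. The averaged value fell to 0.0118 points without control replicate 1 and rose to 0.316 without control replicate 2.

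CpGs standing alone were less methylated than those with a neighbour within 35 bp. Isolated CpGs made up 64.9% of desert CpGs, and 45.3% in the other windows. In deserts isolated CpGs were at 71.2% ± 1.70 in iKO cells and 78.8% ± 3.85 in controls, and the remaining ones at 74.5% ± 1.60 and 81.8% ± 2.89 (SD, n = 2 each). Isolated minus remaining was -3.20 and -3.34 points in the iKO libraries against -3.63 and -2.27 in the controls, a difference between groups of -0.318 points within the pooled SD of 0.681 (two-sided exact permutation p = 1). In the other windows the order was the opposite, with isolated CpGs 5.65 points higher in iKO cells and 5.85 points higher in controls.

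Single desert windows were tested in the fit of all 252642 windows, a quasi-binomial logistic model with a dispersion that limma moderated over the windows. A window was called when its Benjamini-Hochberg adjusted p was under 0.05 and the group means lay 10 or more points apart. Of the desert windows 1233 (6.27%) were called lower and 0 higher, where 17.3% of all windows tested were called lower and 0.000792% higher. By edgeR's quasi-likelihood test 1335 (6.79%) were called lower and 0 higher, where 14.1% of all windows were called lower. Limma on logit levels called 0 in the deserts and 0 of all windows. By that test 6643 of 19666 desert windows had an unadjusted p under 0.05, against 4258 in the quasi-binomial fit. Counts at that unadjusted p are not given for all windows. Whether desert windows reached it more or less often than other windows was therefore not tested. Groups did not overlap, with both iKO libraries lower, in 12560 desert windows (63.9%), where 71.6% of all windows did so.

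The share of windows called lower rose with CpG number in deserts and in the other windows. From the sparsest to the densest class 3.06%, 4.51%, 6.21%, 7.48% and 10.7% of desert windows were called lower. In the other autosomal windows of the same classes the shares were 3.19%, 4.73%, 6.46%, 9.71% and 24.7%. In the 3 sparser classes both kinds of window were thus called about equally often, and in the denser classes deserts were called less often. Whether CpG number accounts for the lower share of calls in deserts was not tested. The number of calls hung on single libraries, in the deserts and in all windows alike. It was 335 in the deserts (1.70%, against 9.09% of all windows) without iKO replicate 1 and 21 (0.107%, against 1.44%) without iKO replicate 2. Without control replicate 1 it was 3174 (16.1%, against 29.2%), and without control replicate 2 it was 70 (0.356%, against 3.97%). With 1 library left in a group, its spread is taken from the other group. The moderated fit gave every window the same dispersion, so a window whose replicates differ can still be called.

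All but 1 of the 238 deserts had a lower mean in iKO cells. In 234 of them both iKO libraries lay below both controls. This held for all 171 deserts with 1000 or more CpGs, and for 99.9% of autosomal 1 Mb windows with as many. The 4 deserts whose groups overlapped were small, with 2 to 5 windows and 96 to 301 CpGs. They lie between Gm11677 and Sox9, between Lmo7 and Kctd12, between Sel1l and Gm40892, and between Mdfic and Tfec. Sox9, a regulator of cartilage and testis development, is known for enhancers in its upstream desert. In the 5 windows beside Gm11677 and Sox9 the levels were 80.9% and 75.2% in the iKO libraries against 80.8% and 86.5% in the controls. The desert between Sel1l and Gm40892 was the one with a higher mean in iKO cells, by 1.63 points on 96 CpGs beside a counting standard error of 2.31.

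**Figure D3:**
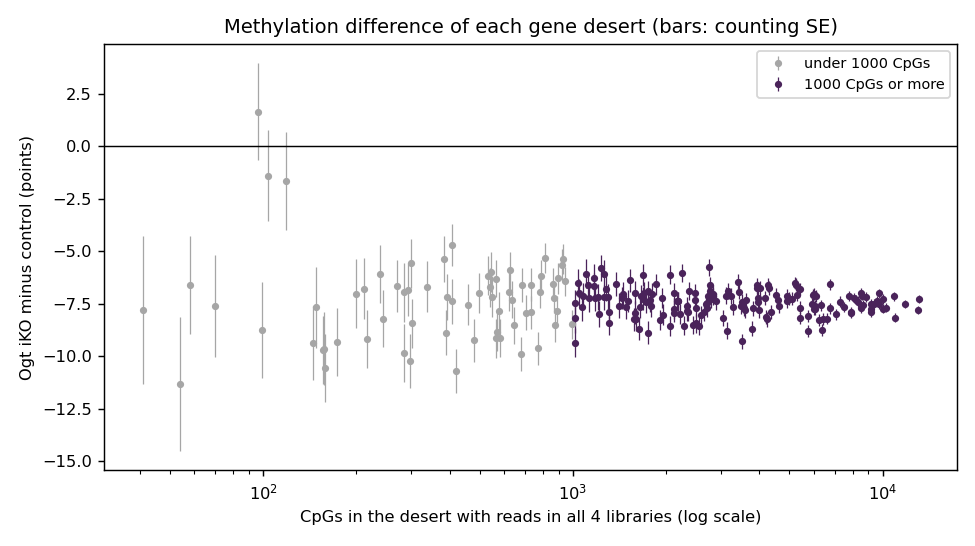
Ogt iKO minus control in percentage points (vertical axis) of each of the 238 deserts against the number of CpGs read in all 4 libraries (log axis), with bars of 1 counting standard error. The 171 deserts with 1000 or more CpGs (dark) all lie between -9.36 and -5.76 points, and the scatter widens among smaller ones (grey).

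Among the 171 deserts with 1000 or more CpGs the loss was of similar size everywhere. Differences ranged from -9.36 to -5.76 points with a median of -7.39, and 149 lay within 1 point of that median. Their SD was 0.651 points, beside a median counting standard error of 0.389. Control levels ranged from 73.0% to 84.1% and iKO levels from 65.8% to 78.0%. In all 171 the groups were apart, as they were in 99.9% of autosomal 1 Mb windows with 1000 or more CpGs. Over those 1 Mb windows the median difference was -7.73 points with an SD of 0.816. By chromosome the difference ranged from -8.25 points on chromosome 17 to -7.08 on chromosome 9, and the groups were apart on all 19 autosomes, with iKO lower.

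Levels of single deserts were correlated between replicates, but their losses were not when libraries were paired by replicate number. Across the 171 deserts Pearson's r was 0.870 between the controls and 0.921 between the iKO libraries. The difference of iKO replicate 1 from control replicate 1 and that of iKO replicate 2 from control replicate 2 share no library, and their r was 0.0399. These are descriptions across deserts, whose values in 1 library share its depth and genome-wide level. The first difference ranged from -6.07 to -1.52 points and the second from -13.7 to -8.28. The ranges did not meet, but that split goes with the numbering. By pooled desert level, the numbering sets the higher iKO library (73.5%) against the lower control (77.3%). It sets the lower iKO library (71.1%) against the higher control (82.3%). All 171 deserts were lower in both differences. With this pairing, the size of the loss in a desert did not repeat. The replicate numbers pair nothing in the labels, and the other pairing is not given. The differences had SDs of 0.731 and 1.05 points, part of which is counting error, which lowers r.

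**Figure D4:**
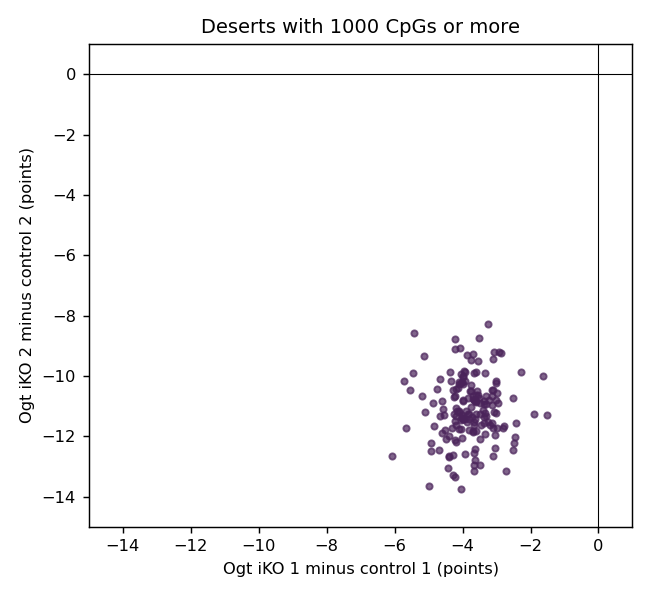
Difference of iKO replicate 2 from control replicate 2 (vertical) against that of iKO replicate 1 from control replicate 1 (horizontal), both in percentage points, with 1 point per desert of 1000 or more CpGs. All 171 points lie below 0 on both axes, with medians of -11.2 (vertical) and -3.78 (horizontal), and form a cloud without slope (r = 0.0399).

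The 5 deserts with the most windows were close to one another in level and loss. The largest desert, between Pcdh20 and Pcdh9 on chromosome 14, has windows from 88980001 to 92510000. Its 353 windows and 12987 CpGs were at 73.1% and 70.0% in the iKO libraries against 76.6% and 82.1% in the controls, a difference of -7.79 points. The desert between Celf4, a neuronal RNA-binding protein, and Pik3c3, a lipid kinase of autophagy, was at 74.3% and 72.2% against 78.4% and 82.6% (-7.27 points). That between Olfm4 and Pcdh17 was at 73.7% and 71.7% against 77.6% and 82.8% (-7.52). The desert between Cntnap5b and Cdh20, a contactin-associated protein and a cadherin, was at 75.2% and 73.3% against 79.3% and 83.5% (-7.15). The one between Tenm3, a teneurin that guides axons, and Aga was at 72.2% and 70.3% against 76.7% and 82.1% (-8.17). The differences of the 5 deserts hung on the controls. They ranged from -5.48 to -4.87 points without control replicate 2 and from -10.9 to -9.29 without control replicate 1. In each of them both iKO libraries were lower than both controls, as in 99.9% of autosomal 1 Mb windows with 1000 or more CpGs. Of their 298 to 353 windows, 15 to 24 were called lower, beside 6.27% of all desert windows and 17.3% of all windows.

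**Figure D5:**
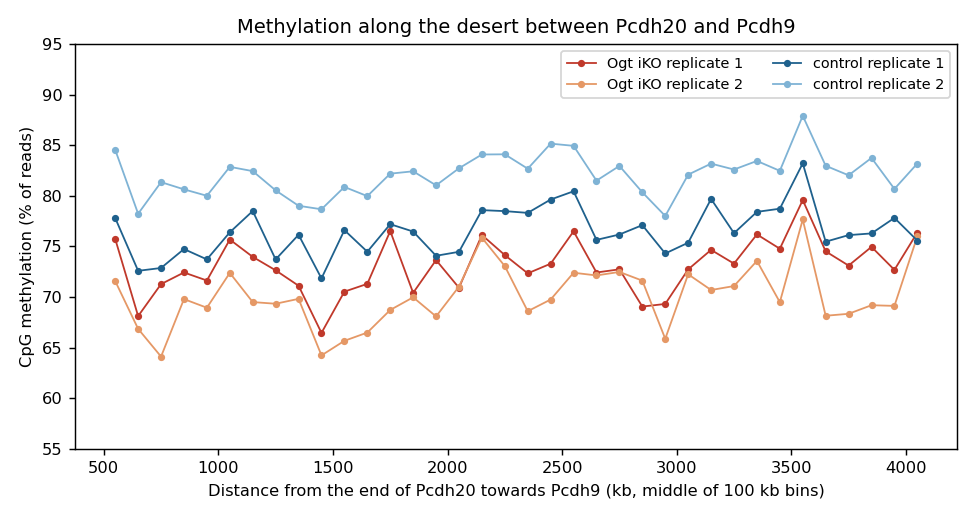
CpG methylation (percent of reads, vertical axis, not starting at 0) along the desert between Pcdh20 and Pcdh9, in bins of 100 kb by distance in kb from the end of Pcdh20, with 1 line per library. Both iKO libraries lie below both controls in 35 of 36 bins, and the group means differ by -10.9 to -3.20 points. This held for 71.6% of all 10 kb windows and 99.9% of autosomal 1 Mb windows with 1000 or more CpGs. No share over all 100 kb bins is given.

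Along that desert the iKO mean was below the control mean in every bin. Levels in bins of 100 kb ranged from 65.3% to 78.6% in the iKO means and from 75.3% to 85.6% in the control means. The bin whose groups overlapped was the last one before Pcdh9, with 3 windows and 102 CpGs, at 76.4% and 76.0% in the iKO libraries against 75.6% and 83.2% in the controls.

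Deserts at both ends of the range of losses are given as a description, since they were picked by that value. Among deserts with 1000 or more CpGs, large losses were found between Plekhb2 and Hs6st1 on chromosome 1 (-9.36 points) and between Gbe1 and Robo1, which encodes an axon guidance receptor, on chromosome 16 (-8.89). The desert beside Robo1 was at 70.8% and 66.6% in the iKO libraries against 74.9% and 80.4% in the controls, over 45 windows. Small losses were found between Tmpo and Nedd1 on chromosome 10 (-5.76) and between Tbl1xr1 and Naaladl2 on chromosome 3 (-6.04). The desert beside Tmpo, which encodes a protein of the nuclear lamina, was at 77.1% and 75.7% against 80.3% and 84.0%, over 49 windows. In these 4 deserts the groups were apart, as in 99.9% of autosomal 1 Mb windows with 1000 or more CpGs.

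At least 30 tested CpGs were held by 14438 desert windows, of which 1082 were called lower with groups that did not overlap. That joint count is not given over all windows, so 1082 is only the pool for naming. Among all windows 17.3% were called lower, and 71.6% had groups apart with lower iKO levels. The 5 largest decreases among the 1082 desert windows are named. The first lay on chromosome 1 at 27890001 to 27900000, between 4931408C20Rik and Gm597 and within the lncRNA gene Gm5524, 876.122 kb from the nearer protein-coding gene. Its levels were 49.0% and 47.8% in the iKO libraries against 73.5% and 78.9% in the controls, on 30 CpGs and 113 to 143 reads (difference -27.8 points, limma-moderated adjusted p = 0.00131). The iKO libraries agreed within 1.16 points. Leaving out iKO replicate 2 ended its call (limma-moderated adjusted p = 0.0528).

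The second lay on chromosome 15 at 15250001 to 15260000 between Cdh6 and Cdh9, which encode cadherins. It was at 52.8% and 45.5% in the iKO libraries against 72.2% and 78.2% in the controls (-26.1 points, limma-moderated adjusted p = 0.000808), and lost its call without iKO replicate 2, at 0.0826. The third, on chromosome 7 at 53290001 to 53300000 between 1700015G11Rik and Luzp2, was at 58.4% and 54.1% against 81.0% and 80.8%, on 67 CpGs and 211 to 243 reads (-24.7 points, limma-moderated adjusted p = 4.49e-05). Of the 5 it alone kept its call whichever library was left out. Both groups were tight there, with a pooled SD of 2.19 points.

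The others lay on chromosome 14 at 40090001 to 40100000 between Nrg3, a neuregulin, and Sh2d4b, and on chromosome 12 at 45960001 to 45970000 between Stxbp6 and Nova1, a neuronal splicing regulator. The first was at 54.7% and 48.5% against 71.7% and 80.4% (-24.5 points, limma-moderated adjusted p = 0.00274). The second was at 50.6% and 40.7% against 69.9% and 69.4% (-24.0 points, 0.00790). Both lost their calls without iKO replicate 2 (0.112 and 0.186) and without control replicate 2 (0.104 and 0.0701), and the second also with at least 2 reads per CpG, where it stood at -10.1 points (0.312). All 5 windows had an adjusted p of 0.108 by limma on logit levels. The 5 windows were picked as extremes of 1082, and each was measured on 93 to 243 reads per library.

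Windows with little methylation in control cells were few. The control mean was under 50% in 27 desert windows and the iKO mean in 84. The 3 lowest control means among windows with at least 30 tested CpGs are named. On chromosome 10 at 55500001 to 55510000, between Man1a, a Golgi mannosidase, and Tbc1d32, levels were 21.0% and 21.3% in the iKO libraries against 25.5% and 37.0% in the controls (-10.03 points, limma-moderated adjusted p = 0.000791). Its CpGs carried 9.22 to 12.5 reads each, above the 3.45 to 4.34 of the deserts as a whole. Without CpGs over 5 times the median depth it stood at -8.35 points with an adjusted p of 0.157 and was not called. It was not called without control replicate 2 either, at -4.27 points (0.288), and it fell short of 10 points without iKO replicate 1 (-9.88) and after thinning (-8.76).

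The second, on chromosome 1 at 113960001 to 113970000 between Dsel and Cntnap5a, was at 34.7% and 26.1% in the iKO libraries against 32.4% and 32.8% in the controls. The third, on chromosome 11 at 13000001 to 13010000 between Cobl, an actin nucleator, and Pom121l12, was at 27.3% and 24.9% against 38.0% and 30.2%. Neither was called (limma-moderated adjusted p = 0.768 and 0.194), and the groups overlapped in the former.

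Genes of other kinds were annotated in 2685 desert windows, and these did not stand apart. They were at 72.0% ± 1.53 in iKO cells and 79.3% ± 3.30 in controls, and the 16981 windows without any annotated gene at 72.4% ± 1.68 and 79.9% ± 3.58 (SD, n = 2 each). The gap between these kinds of window was higher in iKO cells by 0.214 points, beside a pooled SD of 0.228 (two-sided exact permutation p = 0.667). Windows called lower made up 6.18% and 6.28%, below the 17.3% of all windows. The 291 lncRNA genes touched 1569 windows (-7.38 points), and 446 pseudogenes 615 windows (-7.26). The 186 V segments, the variable gene pieces of antigen receptors, touched 181 windows at 70.5% in iKO cells and 78.1% in controls (-7.66). RefSeq does not class V segments as protein-coding, so these windows counted as desert although they hold genes. The 20 windows with miRNA genes were at 72.6% and 79.2% (-6.57).

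The lncRNA promoters, pooled, were less methylated than all desert windows pooled, in every library. Pooled over 399 distinct CpGs of the 220 promoters, on 1211 to 1490 reads per library, levels were 67.2% and 65.9% in the iKO libraries against 73.3% and 78.9% in the controls, a difference of -9.54 points with a counting standard error of 1.22. Promoter minus desert level was -6.24 and -5.25 points in the iKO libraries against -4.02 and -3.36 in the controls. Both iKO values lay below both control values. The mean iKO value minus the mean control value was -2.05 points, beside a pooled SD of 0.594 and that counting standard error (two-sided exact permutation p = 0.333, the smallest possible), and the comparison was added after the data were seen. In 164 of the 220 promoters fewer than 3 CpGs were measured, so single promoters were not tested.

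The 5 promoters printed above spanned nearly the whole range of methylation. Gm32810, in the desert between Dsel and Cntnap5a, had 2 of 22 and 0 of 32 methylated reads in the iKO libraries and 0 of 29 and 0 of 16 in the controls. The exact 95% intervals of the counts of 0 reach up to 10.9%, 11.9% and 20.6%. Gm46645, between Tle4 and Psat1, was intermediate, at 35.3% and 34.5% in the iKO libraries against 27.3% and 40.0% in the controls, with exact 95% intervals that together span 6.02% to 67.7%. Gm46244, also between Dsel and Cntnap5a, had the most CpGs. It was at 67.5% (exact 95% interval 50.9% to 81.4%) and 82.1% (63.1% to 93.9%) in the iKO libraries and at 92.7% (80.1% to 98.5%) and 100% (90.3% to 100%) in the controls. Gm34912, between Igfbp7 and Adgrl3, was at 81.3% and 82.5% against 88.4% and 94.3% on 32 to 57 reads, with intervals that span 63.6% to 98.8%. 4930402F11Rik, between Arrdc4 and Nr2f2, was at 73.3% and 60.9% against 77.4% and 87.5% on 24 to 46 reads, with intervals that span 45.4% to 97.3%. These 5 promoters thus ranged from unmethylated or nearly so to highly methylated within the limits of these read counts. Whether any of them lies in a repeat was not tested, and other lncRNA promoters in deserts may differ.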

How the data were processed

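Whole-genome bisulfite libraries of 2 Ogt iKO and 2 control samples were used, 1 deposited table each, matched to its sample by the genotype (KO or WT) and number in its name. Per the file names, the authors used BSMAP on mm10 and its methratio output for CG positions. Picard is also named, per the submitters' processing notes. Versions, read filters and handling of duplicates are not given in the sources used here. Per the file headers, the deposited counts give, for each CpG, the methylated reads and the sum of C and T reads. CpGs are listed on 1 strand only. A deposited expected count corrects depth for C/T variants, and the authors' methylation fraction divides by it. Levels here were recomputed from the counts, pooled per library.

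Python 3.11.15 joined the tables (NumPy 2.4.6, PyArrow 21.0.0, pandas 2.3.3), and library values were compared by exact permutation in SciPy 1.17.1. Gene positions came from RefSeq's table of GRCm38.p6. The last listed CpG stood for the chromosome end. Windows were fitted in R 4.3.3 with limma 3.58.1 (dispersion kept at 1 or more) and, as alternatives, edgeR 4.0.16 or limma on logit levels with 0.5 reads added. The dispersion was the same in every window, its prior having infinite degrees of freedom. The fit was tested on simulated data. A first simulation, with a smaller change and more spread between libraries, missed most of the changed windows, and it was made easier before the one kept. The kept test checks the code and is no measure of power, and a window that was not called may still have changed. Molecular identifiers are not given and close CpGs can lie on 1 fragment, so intervals and limits from counts of 0 cover counting error only. Difference thresholds are in percentage points, and a window's difference is that of the group means of library levels.

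Windows were named by rule, namely the 5 largest decreases and up to 5 largest increases among called windows with groups apart and at least 30 CpGs, the farthest window and the 3 lowest control means. Deserts named were the 5 with most windows and the 3 largest and 3 smallest decreases among those with 1000 or more CpGs. Of these, 2 are not reported here. Small deserts whose groups overlapped, promoters, isolated CpGs and gene kinds were added after values were seen. Members and lists were chosen with earlier results of these data known.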

Additional observations from a re-analysis of the deposited data

How the results depend on the processing

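The desert difference kept its direction in all 16 alternatives tried, from -9.99 to -4.98 points when 1 library was left out. With at least 5 reads per CpG, only 50 desert windows in 16 deserts could be used. The desert gap to other windows was then -1.21 points and its form within CpG classes -0.492, both reversed. The distance gap was 0.121 and the CpG number gap 0.0686, and 3 windows (6%, against 3.78% of all windows) and 11 deserts were counted. Without 1 library, the gap to other windows ranged from -0.423 to 1.05 points, within CpG classes from 0.0118 to 0.316, the CpG number gap from -0.170 to 1.92 and the distance gap from -0.381 to 0.0461. Windows called lower, 1233 as reported, ranged from 21 to 3174 without 1 library. They were 226 (1.15%, against 8.24% of all windows) with the replicate number as a block, 0 (against 0 of all) by limma on logit levels and 146 (0.742%, against 6.4%) at an adjusted p under 0.01. Other distances change the number of windows. For 300 kb 2365 (7.20%) were called and for 1000 kb 388 (5.99%), beside 17.3% of all windows. Groups were apart in 461 of 468 and in 69 of 70 deserts, beside 99.9% of autosomal 1 Mb windows with 1000 or more CpGs. These deserts were counted whatever their number of CpGs. The replicate numbers pair nothing in the labels, and same-numbered libraries did not deviate together (correlation -0.000437 over desert windows). With the block the desert difference stayed -7.49 points and the SD of its paired values was 5.20. No block was run for the count of deserts. Among named features the desert between Tbl1xr1 and Naaladl2 stood at 8.68 points with at least 5 reads, and the window on chromosome 1 at 113960001 ranged from -6.45 to 2.13 points without 1 library, the latter without iKO replicate 2. At about 4 reads per CpG, single CpGs and small deserts are coarsely measured, and precision comes from pooling.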
